A study of Mus musculus with 4 samples.

Results

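A set of 8 genes of cell-surface peptidases was followed in cultured mouse periosteal cells, out of 45802 gene symbols in the deposited table. They were *Fap*, *Dpp4*, *Mme*, *Anpep*, *Enpep*, *Ace*, *Lnpep* and *Ece1*, taken by symbol, and all 8 had a value in all 4 libraries, as did 14415 genes in total. The genes were chosen by their known function with earlier results of these same libraries in view, so that their levels and the differences between the populations are given as a description, without a test.

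The libraries came from Pdgfrα-mTmG mice, in which CreER under the *Pdgfra* promoter switches a membrane reporter from tdTomato to GFP once tamoxifen is given. All animals were males 9 to 10 weeks of age, and all had received tamoxifen (150 mg/kg daily for 5 days), with collection 14 days later. Periosteal cells of femurs and tibias were released with collagenase, grown for 1 passage with 10 ng/mL bFGF, and sorted as negative for CD31, CD45 and Ter119. GFP+ cells are called PDGFRα reporter+ (2 libraries), and tdTomato+ cells are called PDGFRα reporter− (2 libraries). The reporter marks cells with promoter activity at the time of tamoxifen and their descendants, not current PDGFRα. *Pdgfra* itself had log2 values of 7.78 and 7.62 in PDGFRα reporter+ cells and of 7.87 and 7.44 in PDGFRα reporter− cells. Each population was pooled from 3 to 6 mice per the labels and from 5 to 8 mice per the methods, and no source used here says that libraries of a population came from separate animals. The spread between libraries may therefore be technical in part.

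Values are quantile-normalized log2 values with the same quartiles in every library (−1.47, 1.48 and 3.00). Their linear unit is not stated, nor whether they are scaled to transcript length, so that levels of the 8 genes are compared between libraries and not between genes. Sums over marker genes, the share of 1 gene in them and a place among the quartiles depend on this unit and are given as listed. Library headings carry a number, 2 or 3, in each population, and libraries are named by it. Since a population holds 1 library of each number, differences of the 8 genes are also given within number 2 and within number 3.

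Surface peptidases are membrane-anchored enzymes whose catalytic part faces the extracellular space, where they trim or destroy peptide hormones, chemokines and matrix fragments. Several are used as surface antigens of stromal cells, among them DPP4 (CD26), MME (CD10) and ANPEP (CD13). Both serine and zinc enzymes are present here. FAP and DPP4 are serine peptidases that cut next to proline. The others are zinc peptidases: the aminopeptidases ANPEP, ENPEP and LNPEP, the endopeptidases MME and ECE1, and the dipeptidyl carboxypeptidase ACE.

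The catalytic signature of each enzyme is shown because it is what divides the genes into these classes. The coding sequences below were read from GENCODE M21 transcripts (GRCm38), 5′ to 3′ on the coding strand. Capitals mark the bases that encode the signature, which is glycine, tryptophan, serine, tyrosine and glycine around the catalytic serine in the first 2 lines. In the other lines it is histidine, glutamate, any 2 residues and histidine, of which the histidines hold the zinc ion.
Fap: atatggGGCTGGTCCTACGGAggttat
Dpp4: atttggGGCTGGTCATATGGAgggtat
Anpep: attgctCACGAGCTGGCCCATcagtgg
Enpep: gttgccCACGAACTTGTACACcagtgg
Lnpep: attgctCACGAACTGGCACATcagtgg
Mme: attggaCATGAAATCACACATggattt
Ece1: gtgggcCACGAGCTGACTCACgctttc
Ace, first copy: gtacacCACGAGATGGGCCACgtgcag
Ace, second copy: gcgcacCACGAAATGGGCCACatccag

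In both *Fap* and *Dpp4* the 27 bases lay across the junction of exons 21 and 22 and began the signature at residue 622 (chr2:62504591-62512397 and chr2:62347903-62348512, the intron included). They also crossed a junction in the 3 aminopeptidases, between exons 5 and 6 in *Anpep* (chr7:79838999-79839186) and *Enpep* (chr3:129309133-129309792) and between exons 6 and 7 in *Lnpep* (chr17:17568432-17570897). In *Mme* (exon 18, chr3:63362015-63362041) and *Ece1* (exon 17, chr4:137957166-137957192) they lay within 1 exon. *Ace* held the signature at 2 places, in exon 8 (chr11:105972904-105972930) and exon 20 (chr11:105985088-105985114). Over aligned coding bases, *Fap* and *Dpp4* were 59.6% identical, pairs of the aminopeptidases 54.4% to 55.5%, and *Mme* and *Ece1* 54.7%.

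**Figure D1:**
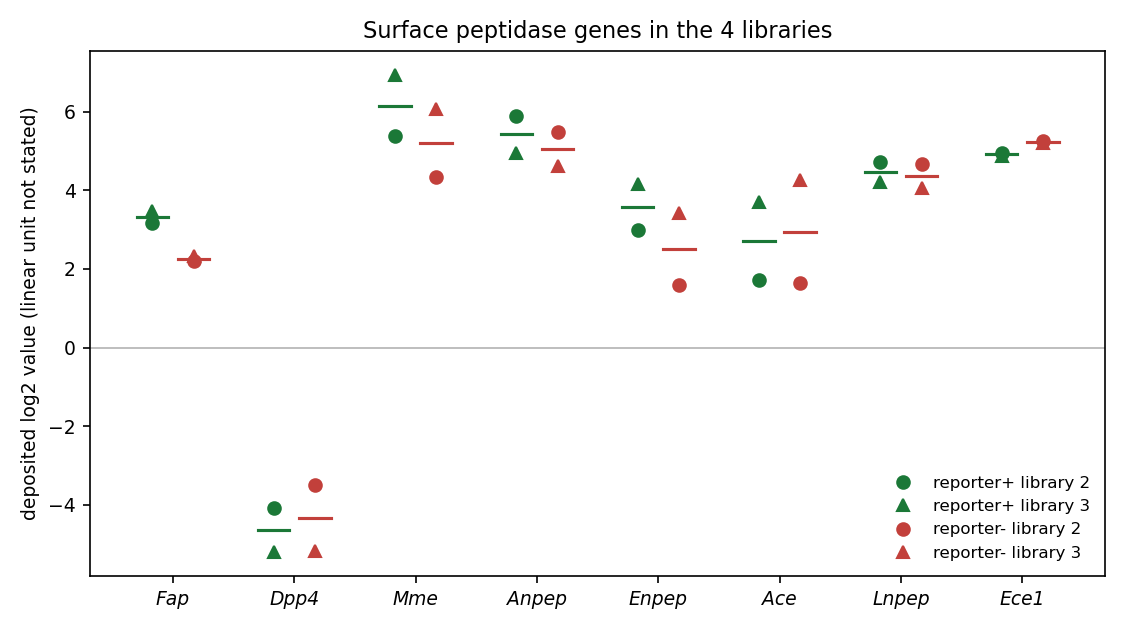
Deposited log2 value (vertical axis) of each surface peptidase gene in the 4 libraries. Green stands for PDGFRα reporter+ and red for PDGFRα reporter−, circles for number 2 and triangles for number 3, and short lines for population means. The populations are separated for *Fap* (3.17 and 3.48 against 2.19 and 2.34) and, by less, for *Ece1*. For the other genes (*Dpp4*, *Mme*, *Anpep*, *Enpep*, *Ace* and *Lnpep*), the numbers are further apart than the populations.

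Within both numbers, 5 of the 8 genes were higher in PDGFRα reporter+ cells (*Fap*, *Mme*, *Anpep*, *Enpep* and *Lnpep*) and 2 were lower (*Dpp4* and *Ece1*), compared with 22.1% and 24.8% of all 14415 genes. *Ace* took opposite signs. The difference was above 0.5 on the log2 scale for 3 of the 8 genes (*Fap*, *Enpep* and *Mme*), as for 6.68% of all genes. Populations did not overlap for *Fap*, the higher one, and *Ece1*, the lower one, against 7.59% and 8.1% of all genes in these directions. The median difference over the 8 genes was 0.24, compared with 0.00 over all genes. These counts rest on the contrast in view when the genes were chosen and are not evidence about them.

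*Fap* encodes fibroblast activation protein, a proline-specific endopeptidase and dipeptidyl peptidase of activated fibroblasts. The gene spans 62500943 to 62574075 on the minus strand of chromosome 2. Its log2 values were 3.17 and 3.48 in PDGFRα reporter+ libraries 2 and 3, compared with 2.19 and 2.34 in PDGFRα reporter− libraries 2 and 3. Both PDGFRα reporter+ values lay above both PDGFRα reporter− values, with means of 3.32 ± 0.22 and 2.26 ± 0.11 (SD, n = 2). The difference was 1.06, or 2.09-fold, with 1.97-fold within number 2 and 2.21-fold within number 3. The numbers differed by less, with library 3 above library 2 by 0.31 and 0.15.

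*Dpp4* encodes dipeptidyl peptidase 4, which removes N-terminal dipeptides from incretins, neuropeptide Y and chemokines such as CXCL12. It is the close relative of *Fap* and lies beside it on chromosome 2 (62330073 to 62412231), with 88711 bases between the genes and *Gcg* as the 1 protein-coding gene in that gap. *Gcg*, the gene of proglucagon, had a value in 1 library. The log2 values of *Dpp4* were −4.07 and −5.19 in PDGFRα reporter+ cells and −3.49 and −5.17 in PDGFRα reporter− cells. All 4 lay below the lower quartile of the listed values, and the populations overlapped. Means were −4.63 ± 0.79 and −4.33 ± 1.19 (SD, n = 2), and the differences were −0.58 within number 2 and −0.02 within number 3. The neighbouring relatives thus showed differences of opposite sign, 1.06 for *Fap* and −0.30 for *Dpp4*, the latter smaller than the spread between its libraries.

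*Mme* encodes neprilysin, a zinc endopeptidase that degrades enkephalins, tachykinins, bradykinin and natriuretic peptides. On chromosome 3 it spans 63241537 to 63386030. Its log2 values were 5.37 and 6.94 in PDGFRα reporter+ cells and 4.35 and 6.06 in PDGFRα reporter− cells. Library 3 was the higher one in each population, so that PDGFRα reporter− library 3 lay above PDGFRα reporter+ library 2 and the populations overlapped. The difference of 0.95 (1.93-fold) between means of 6.15 ± 1.11 and 5.21 ± 1.20 (SD, n = 2) was smaller than these spreads. Within numbers it was 1.02 and 0.88, while library 3 exceeded library 2 by 1.57 and 1.70.

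*Ece1* encodes the other neprilysin-family member here, endothelin-converting enzyme 1, which makes endothelin-1 from its precursor. The gene lies on chromosome 4 (137862237 to 137965229). Log2 values were 4.95 and 4.88 in PDGFRα reporter+ cells and 5.25 and 5.20 in PDGFRα reporter− cells. Both PDGFRα reporter+ libraries lay below both PDGFRα reporter− libraries. Means of 4.92 ± 0.05 and 5.23 ± 0.04 (SD, n = 2) gave a difference of −0.31, with −0.30 and −0.32 within numbers, so that the level in PDGFRα reporter− cells was 1.24-fold that in PDGFRα reporter+ cells. The difference was small but exceeded the spread between libraries, with library 3 minus library 2 at −0.07 and −0.05.

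*Enpep* encodes aminopeptidase A, which removes N-terminal acidic residues and turns angiotensin II into angiotensin III. It spans 129269175 to 129332720 on chromosome 3. Log2 values of 2.98 and 4.17 were listed in PDGFRα reporter+ cells, and of 1.60 and 3.42 in PDGFRα reporter− cells. The populations overlapped, since PDGFRα reporter− library 3 lay above PDGFRα reporter+ library 2. Means were 3.57 ± 0.84 and 2.51 ± 1.29 (SD, n = 2), a difference of 1.06 (2.09-fold). That difference was uneven, with 1.38 within number 2 and 0.74 within number 3.

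*Anpep* encodes aminopeptidase N, which removes neutral N-terminal residues and marks both mesenchymal and myeloid cells. Its position is 79821803 to 79861059 on chromosome 7. Log2 values were 5.90 and 4.95 in PDGFRα reporter+ cells and 5.48 and 4.61 in PDGFRα reporter− cells. Here library 3 was the lower one in each population, with library 3 minus library 2 at −0.96 and −0.86. The difference of 0.38 between means of 5.43 ± 0.68 and 5.05 ± 0.61 (SD, n = 2) was smaller than the spread between libraries, although it was similar within numbers (0.43 and 0.34).

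*Lnpep* encodes the insulin-regulated aminopeptidase, which cleaves oxytocin and vasopressin and cycles between vesicles and the plasma membrane. It spans 17521410 to 17625050 on chromosome 17. Its values of 4.73 and 4.21 in PDGFRα reporter+ cells overlapped those of 4.67 and 4.05 in PDGFRα reporter− cells. The difference was 0.11, with 0.06 and 0.16 within numbers, compared with SDs of 0.37 and 0.44 (n = 2).

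*Ace* encodes angiotensin-converting enzyme, which makes angiotensin II and inactivates bradykinin. The gene lies on chromosome 11 (105967945 to 105989964). Log2 values were 1.73 and 3.71 in PDGFRα reporter+ cells and 1.65 and 4.25 in PDGFRα reporter− cells. Both libraries 3 lay above both libraries 2. The populations differed by 0.09 within number 2 and by −0.54 within number 3, a mean difference of −0.23 against SDs of 1.40 and 1.84 (n = 2).

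**Figure D2:**
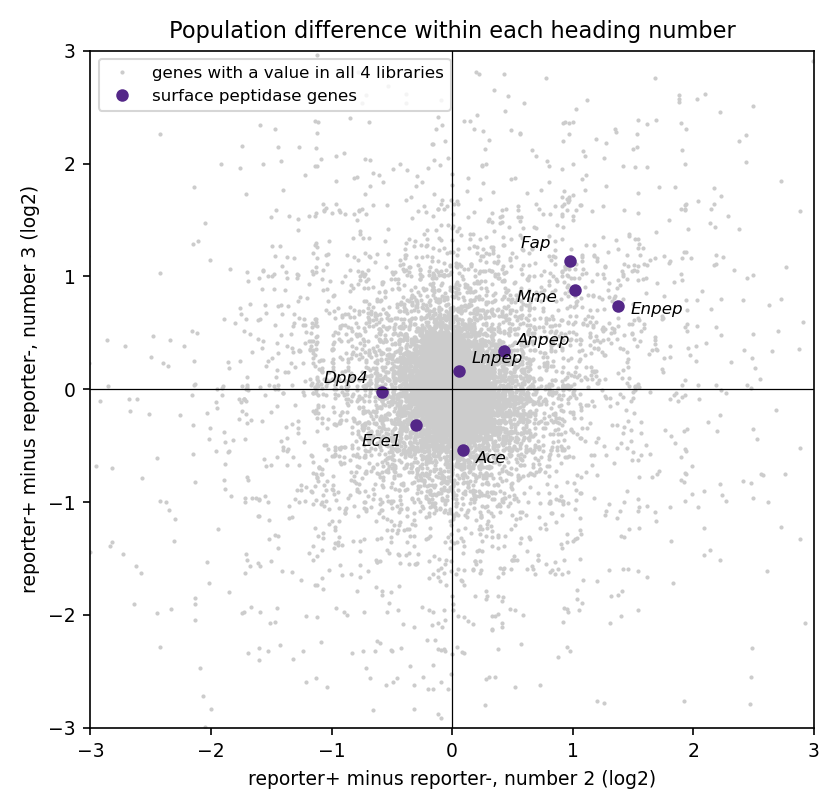
PDGFRα reporter+ minus PDGFRα reporter− log2 value within number 2 (horizontal axis) and within number 3 (vertical axis), in grey for genes with a value in all 4 libraries and in purple for the surface peptidase genes. Axes stop at 3 on either side of 0, which leaves 64 genes outside. *Fap*, *Mme* and *Enpep* lie in the upper right, *Anpep* and *Lnpep* nearer the origin in the same quadrant, *Ece1* and *Dpp4* at the lower left, and *Ace* at the lower right.

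For most of these genes, the difference between numbers was larger than that between populations. Over 14415 genes, libraries of the same number correlated at 0.984 and 0.982, compared with 0.952 and 0.957 for libraries of the same population. Library 3 was above library 2 in both populations for 4 of the 8 genes (*Fap*, *Mme*, *Enpep* and *Ace*), as for 41.1% of all genes, and below it in both for the other 4 (*Dpp4*, *Anpep*, *Lnpep* and *Ece1*), as for 32.7%. The mean difference between numbers was largest for *Ace* (2.29), followed by *Mme* (1.64), *Enpep* (1.51) and *Dpp4* (−1.40). It was −0.91 for *Anpep*, −0.57 for *Lnpep*, 0.23 for *Fap* and −0.06 for *Ece1*. The difference between populations was the larger one in 2 of the 8 genes, *Fap* and *Ece1*. The share of all genes for which this holds was not counted, so that the count is not evidence about these genes. Within the aminopeptidases, *Enpep* thus had its higher values in libraries 3, whereas *Anpep* and *Lnpep* had theirs in libraries 2. What the numbers stand for is not stated, and any cause was not tested.

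The fibroblast label was checked on 13 markers, and all 13 had a value in all 4 libraries. The summed linear level of these markers ranged from 3720 to 4260 in PDGFRα reporter+ cells and from 3250 to 4040 in PDGFRα reporter− cells. Within both numbers, 4 of the 13 were higher in PDGFRα reporter+ cells and 5 were lower, compared with 22.1% and 24.8% of all genes. *Lum* and *Dcn*, genes of small matrix proteoglycans, were higher without overlap, and *Ly6a*, the gene of SCA-1, was lower without overlap. Over all genes, 7.59% were higher and 8.1% lower without overlap. *Lum* had values of 5.96 and 6.04 compared with 4.61 and 3.73 (difference 1.83), and *Dcn* of 7.47 and 8.49 compared with 6.67 and 6.51 (difference 1.39). Values of *Ly6a* were 8.35 and 8.31 compared with 8.63 and 8.44 (difference −0.21). *Col1a1*, *Col1a2*, *Col3a1*, *Dcn*, *Pdgfrb*, *Thy1*, *Vim* and *Ly6a* were above the upper quartile (3.00) in every library. *Pi16*, known with *Dpp4* from fibroblasts of the vessel sheath, was below that quartile in every library, with −2.52 and 1.59 in PDGFRα reporter+ cells and −2.50 and 0.37 in PDGFRα reporter− cells. *Postn*, a marker of activated periosteum, had values of −1.13 and 2.04 compared with 0.14 and 3.04.

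Some of these peptidases are also carried by other cells, and in bulk RNA fewer such cells and less RNA per cell cannot be told apart. Macrophages and other myeloid cells carry ANPEP. Of 12 macrophage markers, 11 had a value in all libraries. Within both numbers, 10 of these were higher in PDGFRα reporter+ cells, compared with 22.1% of all genes. Their summed linear level was 245 and 286 in PDGFRα reporter+ cells, compared with 97.4 and 182 in PDGFRα reporter− cells, of which *Lyz2* alone made up 79.0% to 83.6%. *Ptprc*, the gene of the sorted-out CD45, was −1.28 and −0.39 compared with −2.30 and −1.22. The part of these cells in the differences of *Anpep* and the other genes was not tested.

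Endothelium carries ACE and ECE1. Of 8 endothelial markers, 7 had a value in all libraries. Within both numbers, 6 of these were lower in PDGFRα reporter+ cells, compared with 24.8% of all genes. Their summed linear level was 1.64 and 1.39 in PDGFRα reporter+ cells and 3.13 and 4.07 in PDGFRα reporter− cells. *Erg* alone made up 80.7% and 13.0% of these sums in PDGFRα reporter+ cells and 62.3% and 5.23% in PDGFRα reporter− cells. *Pecam1*, the gene of CD31, had values of −4.68 and −4.79 compared with −1.99 and −1.11. Mural cells, which carry ENPEP and ANPEP, gave 17.7 and 20.6 compared with 28.5 and 30.0 over 8 markers. *Acta2* alone made up 13.9% and 61.4% of these sums in PDGFRα reporter+ cells and 31.9% and 66.4% in PDGFRα reporter− cells. Within both numbers, 5 of the 8 mural markers were lower in PDGFRα reporter+ cells and 2 were higher, compared with 24.8% and 22.1% of all genes. Without overlap, *Myh11* (difference −2.39), *Mcam* (−0.84) and *Notch3* (−0.36) were lower, and *Kcnj8* (0.94) and *Abcc9* (0.44) were higher. Over all genes, 8.1% were lower and 7.59% higher without overlap. The part of endothelial and mural cells in these differences was not tested.

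For lymphoid cells and neutrophils, which carry DPP4 or MME, defining markers were mostly blank. Of 5 T cell markers, *Cd3e*, *Cd3g* and *Cd8a* had no value in any library, and none of the 5 had a value in PDGFRα reporter− cells. Among 6 B lineage markers, *Cd79b* and *Ms4a1* were blank in all 4 libraries, and the summed linear level stayed between 0.087 and 0.305. *S100a9* was blank throughout, and the 6 neutrophil markers summed to 0.0529 to 2.73, with the highest level in PDGFRα reporter+ library 3. *S100a8* alone made up 81.8% and 96.1% of these sums in PDGFRα reporter+ cells and 86.8% in PDGFRα reporter− library 3. It was blank in PDGFRα reporter− library 2. The part of lymphoid cells and neutrophils in the values of *Dpp4* and *Mme* was not tested. The 5 osteoblast markers, of bone-forming cells, summed to 2.85 and 4.86 in PDGFRα reporter+ cells and to 1.72 and 3.26 in PDGFRα reporter− cells. *Alpl* alone made up 70.1% and 80.1% of these sums in PDGFRα reporter+ cells and 75.2% and 61.0% in PDGFRα reporter− cells. *Bglap* was blank in PDGFRα reporter+ library 2.

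**Figure D3:**
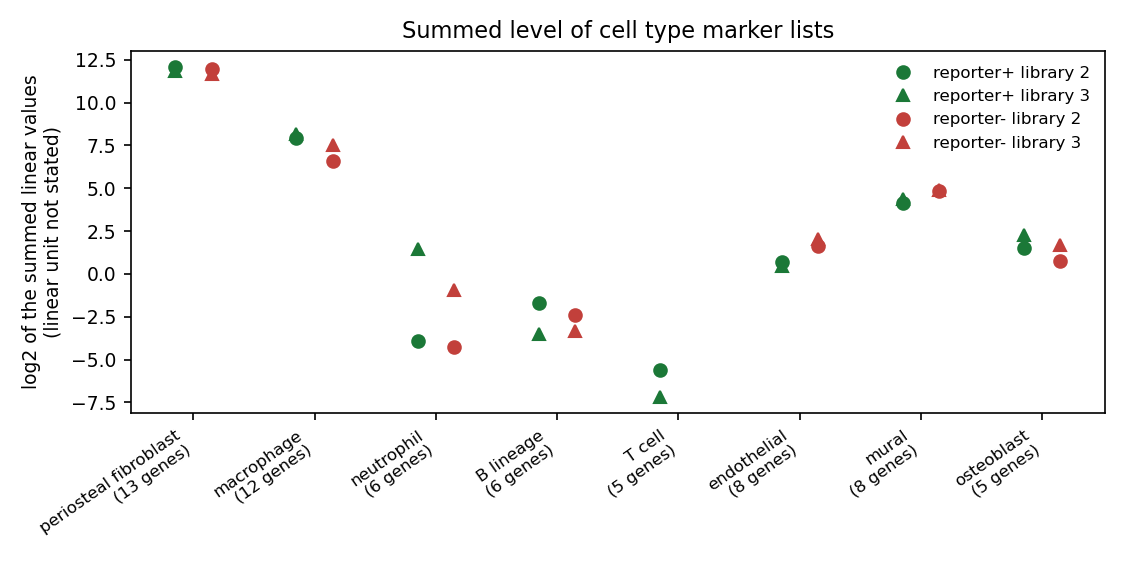
Log2 of the summed linear values (vertical axis) of 8 cell type marker lists in the 4 libraries, green for PDGFRα reporter+, red for PDGFRα reporter−, circles for number 2 and triangles for number 3. T cell markers had no value in PDGFRα reporter− cells and show no red points. Macrophage sums are higher and endothelial and mural sums lower in both PDGFRα reporter+ libraries.

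Other peptidases of the same families, or acting on the same peptides, were examined as a list of 29 genes. Of these, 23 had a value in all libraries and were tested with limma. None had an adjusted p under 0.05, as for 0% of all genes, and none had an unadjusted p under 0.05, compared with 0.451% of all genes in the higher and 0.458% in the lower direction. With the heading number as a replicate block, 913 of all 14415 genes had an unadjusted p under 0.05. Of this list, 1 higher gene did, *Ggt5*. Within both numbers, 6 had the higher value in PDGFRα reporter+ cells and 4 the lower, compared with 22.1% and 24.8% of all genes. The median difference was 0.00, as over all genes. Differences ranged from −1.15 for *Ecel1*, with opposite signs within numbers (0.28 and −2.58), to 0.89 for *Ggt5* (1.25 and 0.53). *Naalad2*, a glutamate carboxypeptidase, was the 1 gene without overlap, compared with 8.1% of all genes in the lower direction. It had values of 0.54 and 1.13 in PDGFRα reporter+ cells and 1.17 and 1.37 in PDGFRα reporter− cells (difference −0.44, SE 0.30). The intracellular relatives of *Dpp4* differed little, *Dpp8* by 0.00 (SE 0.14) and *Dpp9* by −0.13 (SE 0.17). *Ece2*, the relative of *Ece1*, had a difference of 0.27 (SE 0.38), of opposite sign. *Phex*, the neprilysin-family gene of bone-forming cells, had a difference of −0.15 (SE 0.52), with −1.91 and −1.18 compared with −1.77 and −1.02.

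Precursors of peptides cut by these enzymes, and receptors of the peptides, formed a second list of 36 genes, of which 22 had a value in all libraries. None had an adjusted p under 0.05 with limma. An unadjusted p under 0.05 was found for 0 higher and 2 lower genes, *Edn1* and *Oxtr*, compared with 0.451% and 0.458% of all genes. With the heading number as a replicate block, 6 higher and 3 lower genes had such a p, as had 913 of all 14415 genes. The PDGFRα reporter+ value was the higher one within both numbers for 10 of the 22 genes and the lower one for 6, compared with 22.1% and 24.8% of all genes. The median difference was 0.34, compared with 0.00 over all genes. Populations did not overlap for 2 higher genes (*Ednrb* and *Glp1r*) and 4 lower genes (*Edn1*, *Oxtr*, *Ccl11* and *Agtr1b*), compared with 7.59% and 8.1% of all genes.

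The endothelin genes accompany *Ece1*. *Edn1*, the precursor that ECE1 cleaves, had log2 values of −6.60 and −6.47 in PDGFRα reporter+ cells and −3.87 and −2.28 in PDGFRα reporter− cells. Both PDGFRα reporter+ libraries were lower, by a difference of −3.46 (−2.73 and −4.18 within numbers, SE 0.80, unadjusted p = 0.00979 and adjusted p = 1 with limma). All 4 values lay below the lower quartile, and endothelial markers, whose cells make endothelin-1, moved the same way, which was not tested further. *Edn2* was blank throughout, and *Edn3* had a value of −6.05 in PDGFRα reporter− library 3 alone. The receptor gene *Ednrb* had values of 2.74 and 3.31 compared with 1.84 and 2.51, without overlap (difference 0.85, with 0.91 and 0.80 within numbers, SE 0.33, unadjusted p = 0.0545 with limma). With the heading number as a replicate block, its unadjusted p was 0.000158 and its adjusted p 0.0598 with limma. For the other receptor, *Ednra*, values of 2.47 and 1.00 overlapped those of 1.84 and 0.92 (difference 0.36, with 0.64 and 0.09 within numbers, SE 0.61). Leaving out 1 library changed the sign of the *Ednra* difference (−0.37 to 1.10) but not that of *Ednrb* (0.52 to 1.19). Mean values of enzyme and precursor were thus lower in PDGFRα reporter+ cells, and those of both receptors were higher. Neither the precursor nor the receptors passed the test over all genes.

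The angiotensin genes accompany *Ace* and *Enpep*. *Agt*, the precursor, had values of 0.03 and 3.83 in PDGFRα reporter+ cells and −0.30 and 3.62 in PDGFRα reporter− cells. *Agtr2*, the type 2 receptor, had values of 0.42 and 6.22 compared with −0.28 and 4.79, a difference of 1.07 (SE 2.58) that was smaller than the spread between numbers. It was 0.70 within number 2 and 1.43 within number 3. In both genes, libraries 3 lay above libraries 2, as they did for *Ace* and *Enpep*. For the type 1 receptor *Agtr1a*, values were 0.77 and 2.58 compared with −0.22 and 2.94. *Agtr1b* had values of −1.98 and −2.30 compared with −1.96 and −1.50 (difference −0.41, SE 0.45), which was −0.01 within number 2 and −0.80 within number 3. *Ren1* was listed in both libraries 3 alone (−4.36 and −4.31), and *Mas1* in PDGFRα reporter− cells alone (−8.24 and −7.30).

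Of the genes without overlap in this list, 3 more had a difference over 0.5. *Oxtr*, the receptor of oxytocin, which LNPEP cleaves, was −2.61 and −2.55 in PDGFRα reporter+ cells and −1.26 and −1.52 in PDGFRα reporter− cells (difference −1.19, with −1.35 and −1.03 within numbers, SE 0.42, unadjusted p = 0.0435 and adjusted p = 1 with limma). *Ccl11*, an eosinophil chemokine and DPP4 substrate, was −0.24 and 0.37 compared with 0.55 and 1.25 (difference −0.83, with −0.79 and −0.88 within numbers, SE 0.40). *Glp1r*, the receptor of the incretin GLP-1, was −2.12 and −1.82 compared with −2.64 and −2.59 (difference 0.65, with 0.53 and 0.77 within numbers, SE 0.45).

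**Figure D4:**
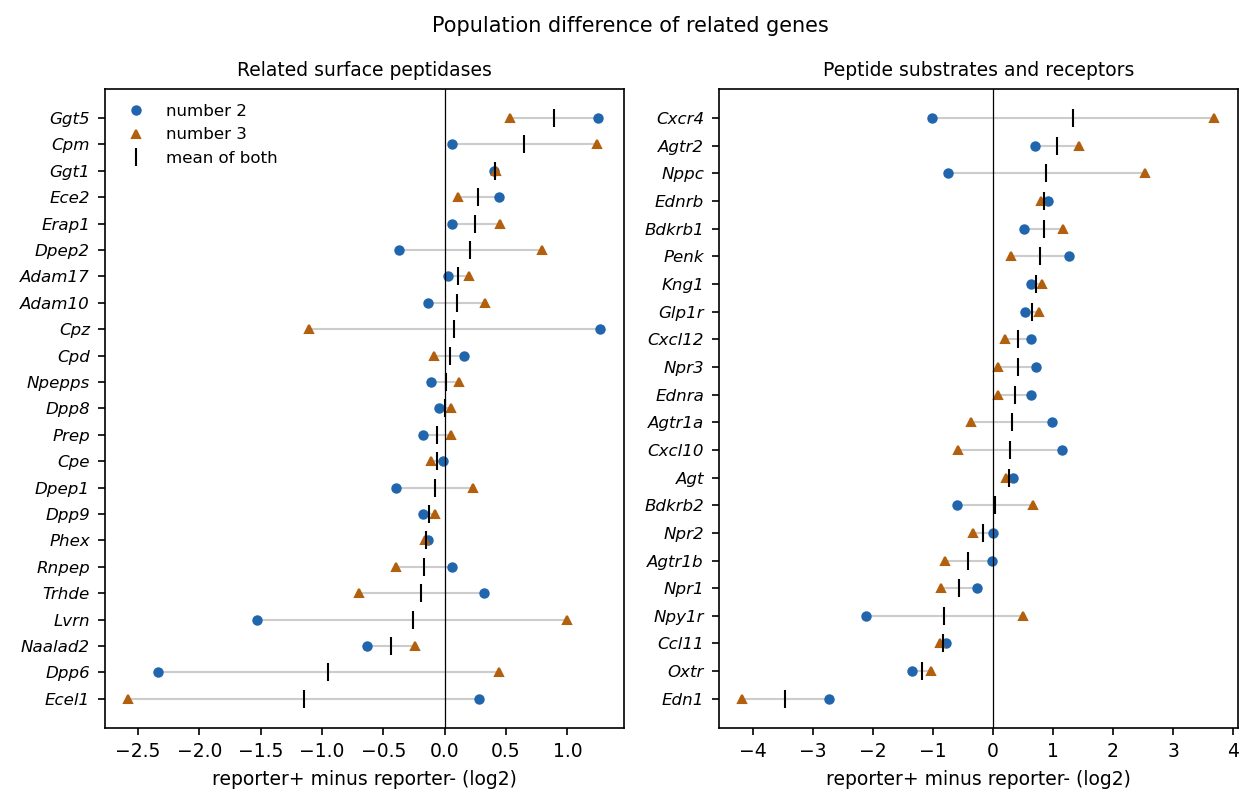
PDGFRα reporter+ minus PDGFRα reporter− log2 value (horizontal axes, of different range) of 23 related peptidase genes (left) and 22 substrate and receptor genes (right). Circles stand for number 2, triangles for number 3 and vertical ticks for their mean. *Edn1* is the lowest gene on the right (−3.46), and both of its within-number values lie well below 0.

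Genes with a profile most like that of *Fap* and *Ece1*, the genes with the highest and the lowest population difference before rounding, were looked up where the mean over libraries was 0 or above on the log2 scale. Likeness was the Euclidean distance between values centred on the mean of the 4 libraries. Nearest to *Fap* were *Vegfc*, a lymphangiogenic growth factor (distance 0.11), *Wnt16*, a Wnt ligand (0.18), *Cyp7b1*, an oxysterol hydroxylase (0.23), *Cd68*, a macrophage marker (0.38), and *Acat3* (0.39). *Vegfc* had values of 2.33 and 2.50 compared with 1.24 and 1.43, close to the steps of *Fap*. Among the genes nearest to *Ece1* were *Fam160b2* and *Tssc4* (distance 0.05 each) and *Kcnd1* and *Jup* (0.06 each). *Enpep* had the same difference as *Fap* at the digits given, and the differences of *Dpp4* (−0.30) and *Ece1* (−0.31) were nearly equal. With 4 libraries, such profiles are a description of these samples.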

How the data were processed

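The authors prepared stranded paired-end libraries of total RNA and sequenced them on an Illumina instrument. Their processing notes name bcl2fastq 2.17.1.14, Partek 7.0 and genome build GRCm38.p6, without roles. The aligner, counting and filters are not given in the sources used here. They deposited 1 quantile-normalized log2 value per gene symbol and library, blank without signal. Since their depth is unknown, counting errors are not given. Columns were assigned to populations by their headings (0 columns unmatched). Differences are means of PDGFRα reporter+ minus PDGFRα reporter− values. The test was limma 3.58.1 under R 4.3.3, run over the 14415 genes listed in all libraries (eBayes with variance trend, two-sided, no block), with Benjamini-Hochberg adjustment and a threshold of 0.05. For a single gene, an exact permutation test (two-sided) could not go below 0.333. Its p-values measure only the spread between these libraries. The fit was checked on simulated data without an effect of the library number, so that this check does not cover that effect. Positions and sequences came from GENCODE M21 (all 8 genes matched), and coding identity from Biopython 1.88 (global alignment; match 1, mismatch −1, gap opening −5, extension −0.5). Plots were made with matplotlib 3.10.9.

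The members, lists and naming rules were chosen with earlier results of these data known. Named were all members, list genes with an unadjusted p under 0.05 or without overlap and a difference over 0.5, endothelin and angiotensin genes, and the 5 genes nearest to the members with the highest and lowest difference. *Ecel1*, *Ggt5*, *Naalad2*, *Dpp8*, *Dpp9*, *Ece2* and *Phex*, the genes of the last part of the closing section and the markers named were chosen after their values were seen. Some genes that these rules name are not reported here. Alternatives were a block, no variance trend, a pseudocount of 1, a minimum mean of 0, genes with blanks, median centring and leaving out each library.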

Additional observations from a re-analysis of the deposited data

How the results depend on the processing

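Library headings share the numbers 2 and 3 between populations, and deviations from population means had a correlation of 0.681 between same-numbered libraries over 14415 genes, but no source used here says that the number marks a shared preparation. With the number as a replicate block, 29 of all genes had an adjusted p under 0.05 with limma, compared with 0 without it and 0 in all other alternatives. Genes with an unadjusted p under 0.05 numbered 131 in the reported model, 913 with the block, 273 without a variance trend and 62 with a minimum mean of 0, which tests fewer genes. Within either list, 0 genes had an adjusted p under 0.05 in any alternative. Leaving out 1 library gave 121 to 177. At the same unadjusted threshold, the substrate and receptor list had 9 genes with the block, 6 higher and 3 lower, compared with 2 lower ones (*Edn1* and *Oxtr*). With limma, *Ednrb* had an unadjusted p of 0.000158 (adjusted p = 0.0598) with the block and of 0.0545 without it, and *Agtr2* of 0.000233 (adjusted p = 0.0642) with the block and of 0.698 without it. *Edn1* was lost with a pseudocount of 1 and *Oxtr* without PDGFRα reporter+ library 3, which left 1 gene each, and neither is tested with a minimum mean of 0, which left 0. The list of related peptidases had 1 gene with the block and 1 without PDGFRα reporter− library 3, compared with 0. Leaving out 1 library unbalances the numbers. The difference then ranged from 0.91 to 1.22 for *Fap*, 0.10 to 1.80 for *Mme*, 0.15 to 1.97 for *Enpep* and −0.35 to −0.27 for *Ece1*, without a change of sign. It changed sign for *Anpep* (−0.10 to 0.86), *Lnpep* (−0.20 to 0.42), *Dpp4* (−1.14 to 0.54) and *Ace* (−1.53 to 1.08). The other alternatives changed no sign among the 8 genes, and with a pseudocount of 1 the difference of *Dpp4* was −0.02.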

Other observations

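Other genes around these peptidases, chosen after their values were seen, also varied with the library number. *Dpep1*, a membrane dipeptidase, had log2 values of 1.27 and 5.54 in PDGFRα reporter+ libraries 2 and 3 and 1.66 and 5.31 in PDGFRα reporter− libraries 2 and 3. *Bdkrb1*, the kinin receptor induced in inflammation, went the other way, with 1.65 and −0.48 compared with 1.12 and −1.65. *Cxcl12*, a chemokine that DPP4 inactivates, had values of 5.58 and 7.13 compared with 4.94 and 6.93. *Kng1*, a kinin precursor gene, had values of 2.91 and 5.18 compared with 2.27 and 4.37. Its close copy *Kng2* had 4.36 and 5.33 compared with 4.01 and 4.84, and how reads of the copies were divided is not stated, so that both values are uncertain. *Ggt5*, which processes glutathione and leukotrienes, had values of 3.51 and 4.62 compared with 2.26 and 4.10, higher in PDGFRα reporter+ cells within both numbers (1.25 and 0.53). *Penk*, the enkephalin precursor whose products neprilysin degrades, was higher by 1.27 within number 2 and by 0.30 within number 3.

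A list gene chosen after its values were seen was blank in a whole population. *Npy*, the precursor of neuropeptide Y, was listed at −3.17 and −2.61 in PDGFRα reporter+ cells and was blank in both PDGFRα reporter− libraries. Whether a blank is an absence of reads is not stated.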
